A study of Mus musculus with 18 samples.

Results

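Myc and 43 other genes were followed in mouse bone marrow, in the erythroid progenitors named PreCFU-E and in the later CFU-E. The 43 are genes of ribosome biogenesis, apart from Srm, the gene of spermidine synthase. The 44 genes were taken by name from a count table of 21967 genes, as a module of known function. They were chosen with earlier results of these data known, which limits every share of members set against all genes. Of these, 43 passed the filter on low counts and were tested, and Wdr74 did not pass.

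Cells enriched for c-Kit were sorted by flow cytometry, and total RNA was sequenced from 18 libraries in 6 groups. All mice carried at least 1 floxed allele of Scf, the gene of the KIT ligand. FL/FL mice had floxed copies and no Cre. KO/FL mice had a null copy opposite the floxed copy, again without Cre. In KO/FL;Lepr-Cre mice, called Lepr-Cre from here on, the KO/FL genotype was joined by a Cre expressed from the leptin receptor locus and active in marrow stromal cells. Lepr-Cre against KO/FL therefore differs by the Cre, and Lepr-Cre against FL/FL by both the null copy and the Cre. There were 3 mice per genotype, lettered A, B and C, of which B was female and A and C were male, and each of the 9 mice gave both cell types. Ages of the mice: not given in the sources used here.

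MYC is a transcription factor that binds DNA with MAX at the E-box CACGTG and raises genes of growth, of which ribosome biogenesis is the best known set. Ribosomes are built in the nucleolus: RNA polymerase I transcribes the precursor rRNA, small nucleolar ribonucleoproteins (snoRNPs) modify it, and assembly factors fold and cut it into the small and the large subunit. Erythroid progenitors make ribosomes at a high rate while they divide, and the inherited anaemias caused by faulty ribosome production show how far the lineage depends on it.

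The E-box is a sequence that MYC binds with MAX, so the promoters were searched for it. In the RefSeq promoter table (GRCm38.p6, 250 bases before to 50 after each start) 37 of the 44 members had an entry, and 6 of the 37 (16.2%) held CACGTG, which reads the same on both strands. Myc, Srm, Fbl, Npm1, Rrp12, Bop1 and Rrs1 had no entry and were not searched. The share was 12.3% over the 8141 tested genes with an entry, 8.09% over 27025 genes and 7.15% over 32851 promoters. The 5 shown are those with the smallest p between the cell types in FL/FL mice, and Pes1 was the other. Each line gives 30 bases, 5′ to 3′ on the strand of the gene, with the E-box in capitals.
Mybbp1a: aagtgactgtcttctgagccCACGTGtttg
Wdr43: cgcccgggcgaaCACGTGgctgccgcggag
Nop2: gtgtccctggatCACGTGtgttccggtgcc
Utp20: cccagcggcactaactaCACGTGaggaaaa
Tsr1: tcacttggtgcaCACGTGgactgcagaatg
The stretches lie at chr11:72441347-72441376 for Mybbp1a, chr17:71616220-71616249 for Wdr43, chr6:125131811-125131840 for Nop2, chr10:88826765-88826794 for Utp20 and chr11:74898092-74898121 for Tsr1, with Utp20 on the minus strand and the others on the plus strand. The first base of the E-box stands 60 bases before the start of Nop2 and 18 to 41 bases after the start of the other 4. A match describes the sequence and is no evidence of binding, and the lack of a match concerns this window alone.

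Library totals ran from 3541066 to 9389122 counts, with 10782 to 13536 genes detected. Kitl, the targeted gene (also called Scf), had 0 counts in 16 of 18 libraries and at most 1, so these progenitors do not check the deletion in the stroma. Counts of Y-linked genes were 0 to 3 per library of a B mouse and 981 to 2718 per library of an A or C mouse, as the labels have it. The 8 erythroid markers, Gata1, Klf1 and Epor among them, summed to 3816 to 4859 CPM per library (counts per 1000000 counts of the library, after TMM scaling). Markers of neutrophils and monocytes summed to at most 5.05 CPM, with Elane, Ctsg and Ly6c2 at 0 counts in every group. Megakaryocyte markers summed to at most 52.9 CPM. Values after ± are SD over 3 libraries. The term "called" means an adjusted p (Benjamini-Hochberg) under 0.05 in edgeR's quasi-likelihood test over all tested genes.

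The module spanned a wide range of levels. Per kilobase of exon, the highest in PreCFU-E of FL/FL mice were Npm1, the histone and ribosome chaperone nucleophosmin, at 1090 ± 75.6 CPM per kb, Ncl, the nucleolar protein nucleolin, at 1060 ± 141, and Nop56, a core protein of box C/D snoRNPs, at 405 ± 40.2. Npm1 and Ncl differed by less than their SD on this scale, with exon lengths of 2.03 kb and 8.20 kb. By CPM without the length they stood at 2215 and 8690.
Myc ranked ninth by this measure over both FL/FL groups, at 254 ± 23.1 CPM per kb in PreCFU-E and 130 ± 5.39 in CFU-E. The lowest were Wdr12, at 19.8 ± 1.59 in PreCFU-E, Nip7, at 19.4 ± 3.72, and Wdr74, at 0.58 ± 0.65. Wdr12 and Nip7 differed by less than their SD. The length merges all annotated exons of coding transcripts, 10.6 kb for Wdr12, and the ranks depend on it. By CPM without the length Wdr12 stood at 210 in PreCFU-E of FL/FL mice, above Noc4l at 79.4. Wdr74, a factor of large subunit assembly, had 0 to 15 counts in the 18 libraries.

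Myc (ENSMUSG00000022346.15, chromosome 15, 61985391 to 61990374, plus strand, GRCm38) was the member that changed most between the cell types. In PreCFU-E its level was 598, 687 and 582 CPM in replicates A, B and C of FL/FL mice. In PreCFU-E of KO/FL mice it was 508, 676 and 672 CPM, and in those of Lepr-Cre mice 553, 649 and 582 CPM. CFU-E held 329, 319 and 303 CPM in FL/FL, 280, 324 and 384 CPM in KO/FL and 363, 361 and 309 CPM in Lepr-Cre mice. Every PreCFU-E library lay above every CFU-E library, while the 3 genotypes overlapped within each cell type. Summed over the other 43 members the order was different: the cell types overlapped, and the Lepr-Cre libraries lay above those of the other genotypes in both. Ncl and Npm1 carry much of that sum: of the 4124 CPM between the means of Lepr-Cre and FL/FL mice in PreCFU-E they made 2124 and 749 CPM, and of the 4625 CPM in CFU-E 2102 and 775 CPM. Over the other 41 members the PreCFU-E libraries overlapped, at 13125 to 14807 CPM in Lepr-Cre and 12003 to 13435 CPM in FL/FL mice, and those of CFU-E did not, at 12420 to 13183 and 10550 to 11433 CPM. In bulk RNA, fewer cells of a type and less RNA per cell cannot be told apart.

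**Figure D1:**
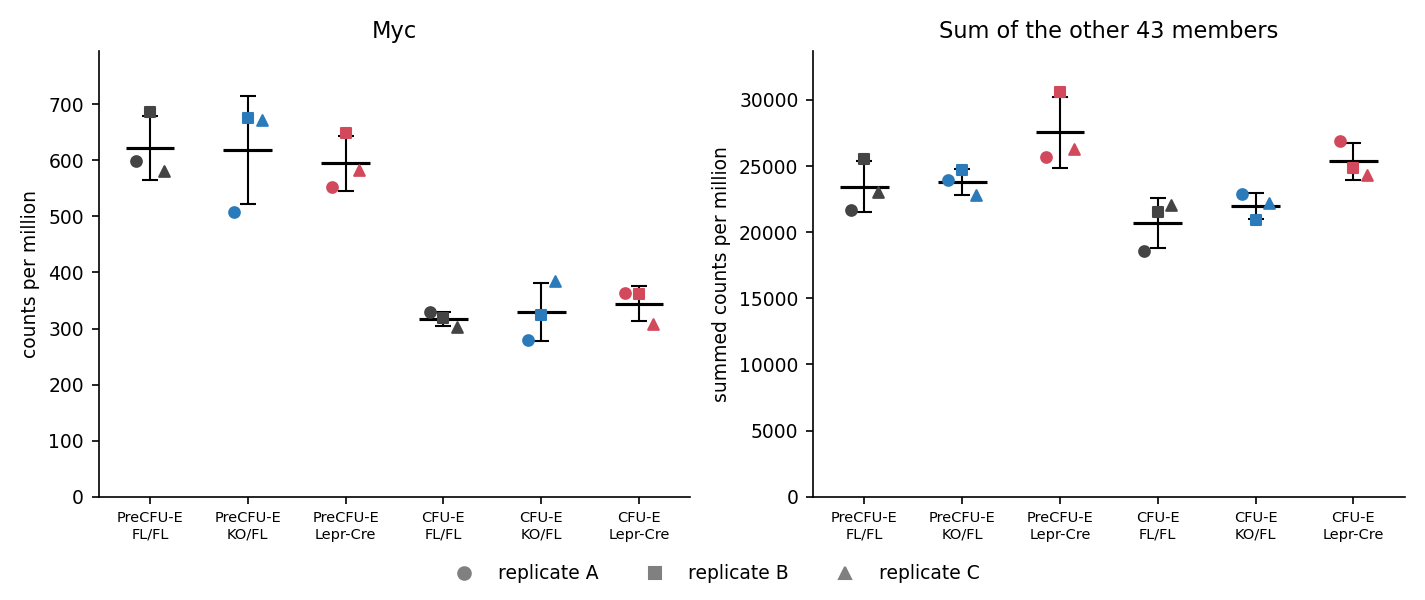
Myc (left) and the sum of the other 43 members (right) in CPM on the y axes, with the 6 groups on the x axes. Points are libraries, marked by replicate letter, and bars show mean ± SD over 3 libraries. Myc is at 508 CPM or more in all PreCFU-E libraries and at 384 CPM or less in all CFU-E libraries, and the sum, of which Ncl and Npm1 are a large part, is highest in Lepr-Cre mice within each cell type.

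The step from PreCFU-E to CFU-E was compared within each genotype, with the p-values from 1 fit of all 18 libraries that had no block for the mouse. In FL/FL mice Myc fell from 622 ± 56.5 to 317 ± 13.2 CPM (log2 fold change -0.97, SE 0.12, adjusted p = 3.87e-07 by edgeR), and 9 other members fell with it, from Rrs1 (-0.52) to Wdr43 (-0.25). No member rose. The background in this comparison was 18.3% of 10732 genes called, 9.3% lower, and 10 of 43 members make 23.3%. Groups did not overlap for 15 members below and 1 above, where 18.1% of all genes lay below and 16.9% above. The median log2 fold change of the 43 was -0.14, against 0.01 over all tested genes.

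By role, both Myc and Srm fell. Srm, the spermidine synthase gene and a direct target of MYC, stood at 190, 188 and 172 CPM in PreCFU-E and at 123, 150 and 158 CPM in CFU-E of FL/FL mice (-0.35, SE 0.11, adjusted p = 0.0252 by edgeR). Mybbp1a, a nucleolar partner of RNA polymerase I, fell (-0.34, adjusted p = 0.0396), whereas Polr1a and Polr1b, the largest subunits of the polymerase, had log2 fold changes of -0.04 and -0.14 and were not called. None of the 3 box C/D proteins (Nop56, Nop58, Fbl), the 4 box H/ACA core proteins (Dkc1, Gar1, Nhp2, Nop10), the snoRNP chaperone Nolc1 or the 3 abundant nucleolar proteins (Ncl, Npm1, Gnl3) was called in this step. Npm1 moved by -0.01 on the log2 scale.

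Of 11 small subunit factors 4 fell: Rrp12 (-0.50), Nat10, the acetyltransferase of small subunit rRNA (-0.32), Ddx10, an RNA helicase (-0.29), and Wdr43 (-0.25). Rrp12, a factor of subunit export, was read at 205, 224 and 188 CPM in PreCFU-E and 141, 148 and 146 CPM in CFU-E (SE 0.13, adjusted p = 0.00467 by edgeR). The groups were apart by more than their own ranges. Of the 3 PeBoW proteins (Pes1, Bop1, Wdr12), which act on the large subunit, 0 were called.
Among the 12 other large subunit factors tested 3 fell: Rrs1 (-0.52), Rrp1b (-0.50) and Ebna1bp2 (-0.46). Rrp1b stood at 187, 203 and 152 CPM and then at 135, 125 and 121 CPM (SE 0.12, adjusted p = 0.00304). Ebna1bp2 stood at 175, 233 and 208 CPM and then at 130, 151 and 167 CPM (SE 0.11, adjusted p = 0.00396). Rrs1 was called although its PreCFU-E library C, at 127 CPM, lay below CFU-E library B, at 131 CPM. Its adjusted p was 0.0529 without PreCFU-E FL/FL replicate B.

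The smaller calls of this step did not hold when libraries were left out. The count of 10 members became 3 without PreCFU-E FL/FL replicate B and 5 without CFU-E FL/FL replicate A or B, and over all genes the 1963 calls became 1376, 1646 and 1342. Wdr43 lost its call without any one of the 6 libraries, at log2 fold changes of -0.28 to -0.21. Srm, Mybbp1a, Nat10 and Ddx10 each lost theirs without PreCFU-E FL/FL replicate B, CFU-E FL/FL replicate A or CFU-E FL/FL replicate B, among others. Without CFU-E FL/FL replicate A their log2 fold changes were -0.26, -0.29, -0.28 and -0.27 (adjusted p of 0.0838 to 0.159 by edgeR). Wdr43 and Ddx10 also lost their calls without the filter on low counts (adjusted p = 0.113 and 0.0736). Myc, Rrp12 and Rrp1b kept their calls under every alternative and with each library left out. With the mouse as a block edgeR called 16, all lower, among 25.2% of all genes (12 lower), the added ones being Rrp9, Heatr1, Ppan, Bop1, Ncl and Utp20. The 8 stem and early progenitor markers summed to 259 to 321 CPM in PreCFU-E and 56.8 to 62.9 CPM in CFU-E of FL/FL mice, where Cd34 and Flt3 were at 0. The 6 stromal markers summed to 9.94 to 16.4 CPM in PreCFU-E, with Cxcl12, Lepr, Col1a1 and Pdgfra at 0, and to 0.471 to 1.64 CPM in CFU-E. Endothelial markers summed to 0.704 to 5.75 CPM in CFU-E, below every PreCFU-E library, with Cdh5 at 0 in both and Kdr in CFU-E. Erythroid markers summed to 3816 to 4099 CPM in PreCFU-E and 4192 to 4855 CPM in CFU-E. Their part in the result was not tested.

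In KO/FL mice Myc fell to 329 ± 52.3 from 619 ± 96.1 CPM (-0.91, SE 0.12, adjusted p = 1.64e-06 by edgeR), and Ddx10 fell from 298, 318 and 303 to 243, 220 and 216 CPM (-0.44, SE 0.10, adjusted p = 0.00316). These 2 were the members called, both lower, where 14.1% of all genes were called and 7.18% were lower, so the share of members (4.65%) was the smaller. The third smallest p was that of Rrp9 (-0.37, adjusted p = 0.0714). With the mouse as a block there were 8, 7 lower and 1, Nhp2, higher, among 20.1% of all genes. Without a block, leaving out 1 library gave 2 to 4. The count was 4 without PreCFU-E KO/FL replicate C, where the 1510 calls over all genes became 1364. Without CFU-E KO/FL replicate B it was 3, 1 of them higher, with 1280 calls over all genes.
In Lepr-Cre mice Myc fell to 344 ± 31.1 from 595 ± 49.3 CPM (-0.79, SE 0.12, adjusted p = 5.34e-05 by edgeR) and was the 1 member called, where 7.25% of all genes were called and 4.25% were lower; for members the share was 2.33%. The next by p were Ebna1bp2 (-0.35, adjusted p = 0.0584) and Nat10 (-0.29, adjusted p = 0.0626). With the mouse as a block these were called too, with Rrp1b and Heatr1, 5 in all, among 12.3% of all genes. Across the 3 genotypes, 28 of 43 members were lower in CFU-E each time (65.1%), against 31.0% of all tested genes. The 4 members that were higher each time were Nhp2, Nop14, Noc4l and Mrto4, none of them called.
Markers moved at these steps too. Stem and early progenitor markers went from 228 to 264 CPM in PreCFU-E to 41.3 to 56.5 CPM in CFU-E of KO/FL mice (Flt3 at 0 in CFU-E), and from 81.4 to 130 CPM to 28.8 to 56.4 CPM in Lepr-Cre mice (Cd34 at 0 in both). Stromal markers went from 6.98 to 14.9 CPM to 1.43 to 2.15 CPM in KO/FL mice and from 12.7 to 26.7 CPM to 3.78 to 6.76 CPM in Lepr-Cre mice, with Col1a1 at 0 in PreCFU-E and Pdgfra at 0 in CFU-E of both. Erythroid markers lay above the PreCFU-E range in CFU-E of KO/FL mice, 4210 to 4859 against 3831 to 4176 CPM, and overlapped in Lepr-Cre mice. Their part in the result was not tested.

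**Figure D2:**
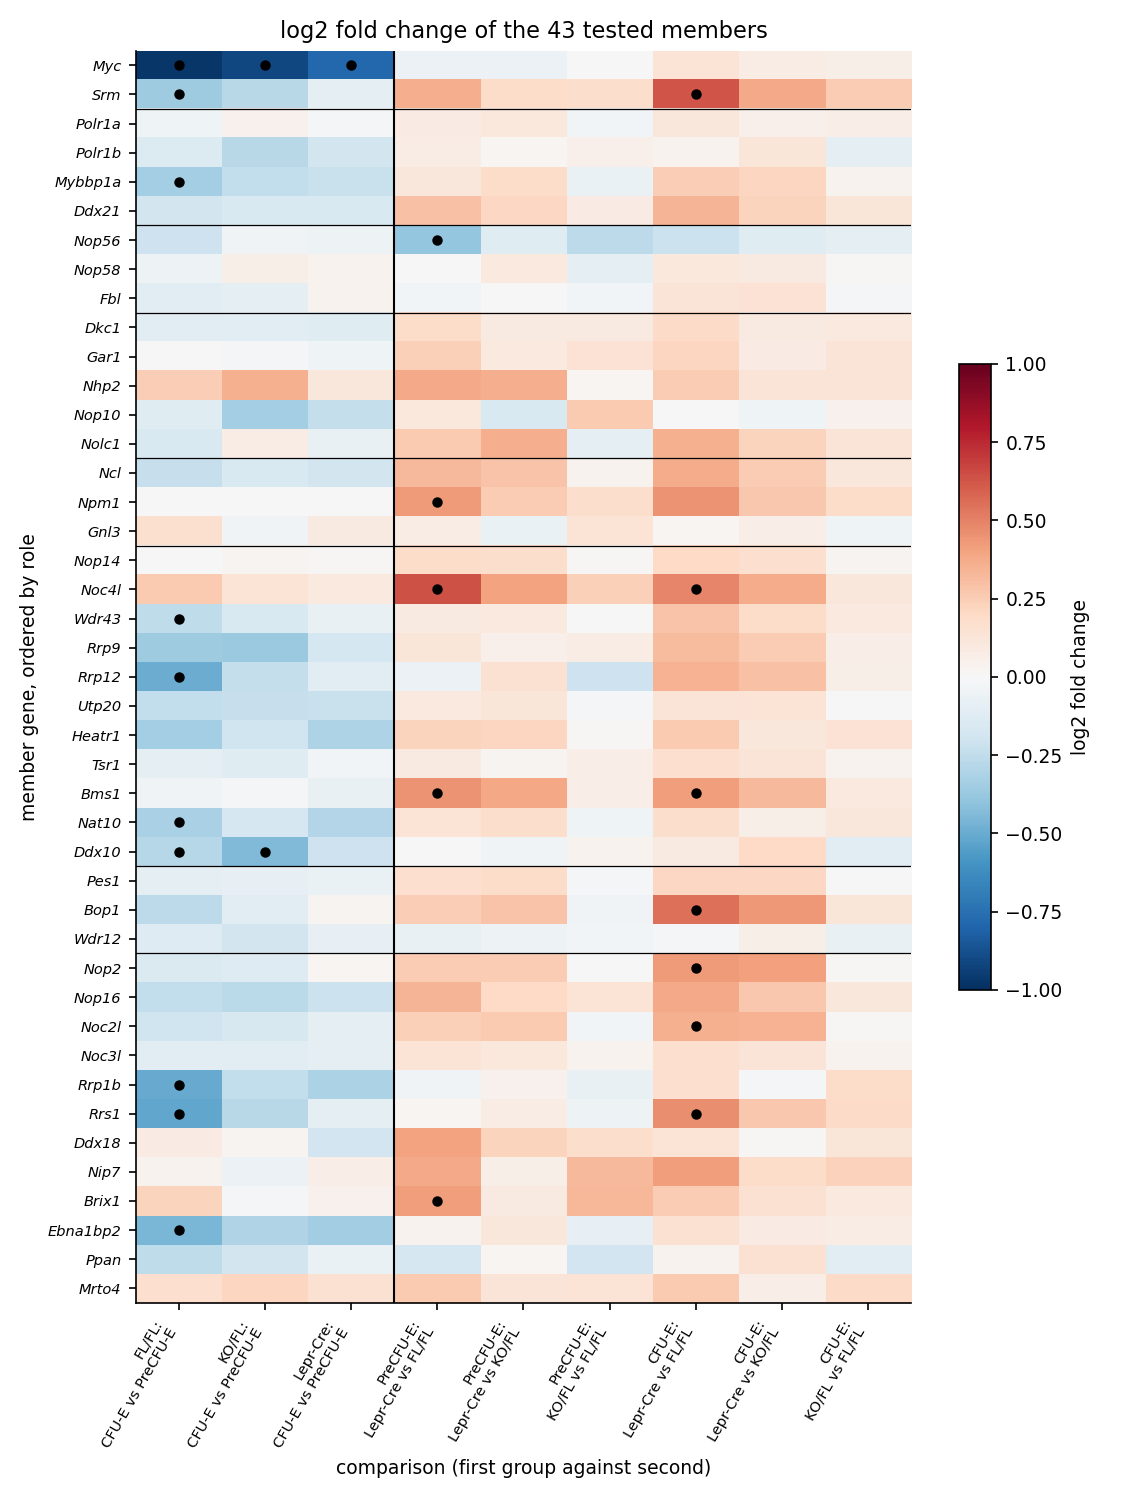
Log2 fold change (colour, from -1 to 1) of the 43 tested members (y axis, ordered by role, with lines between roles) in 9 comparisons (x axis, first group against second). Dots mark an adjusted p under 0.05. Myc is dark blue in the 3 columns of the cell type step and near white in the 6 genotype columns, and most members are red in the columns of Lepr-Cre against FL/FL.

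In PreCFU-E of Lepr-Cre against FL/FL mice 4 members rose and 1 fell: Noc4l, Bms1, Npm1 and Brix1 were higher and Nop56 was lower. Among 10309 tested genes 6.13% were called, 2.89% higher and 3.24% lower, against 11.6% of the members. For 14 members the Lepr-Cre libraries lay wholly above and for 1 wholly below, against 12.5% and 12.7% of all genes. Log2 fold changes were above 0 for 35 of 43 members and 50.5% of all genes, with medians of 0.14 and 0.00. Myc was at -0.06 (SE 0.12, adjusted p = 0.845).

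Noc4l, a partner of Nop14 in the small subunit precursor, was read at 118, 124 and 127 CPM in Lepr-Cre and at 87.4, 78.6 and 72.0 CPM in FL/FL mice (0.64, SE 0.13, adjusted p = 0.00250 by edgeR, n = 3 per group). KO/FL mice lay between, at 88.2, 97.0 and 94.9 CPM. The call held with each library left out. Bms1, a GTPase of small subunit assembly, stood at 566, 665 and 568 against 440, 469 and 412 CPM (0.45, SE 0.11, adjusted p = 0.0139), with KO/FL at 455, 497 and 426 CPM. Bms1 lost its call without Lepr-Cre replicate B (adjusted p = 0.0953) or FL/FL replicate C (0.0845).
Npm1 was read at 2735, 3222 and 2933 against 2059, 2218 and 2366 CPM (0.42, SE 0.11, adjusted p = 0.0208). Brix1, a large subunit factor, stood at 193, 192 and 213 against 147, 144 and 157 CPM (0.42, SE 0.11, adjusted p = 0.0234). KO/FL mice held 179, 172 and 211 CPM of Brix1, overlapping the Lepr-Cre range. Both lost their calls without Lepr-Cre replicate B, Lepr-Cre replicate C, FL/FL replicate A or FL/FL replicate B, and Brix1 also without FL/FL replicate C (adjusted p = 0.0537) or when scaled by library totals alone (0.0516). Their adjusted p-values without Lepr-Cre replicate B were 0.0933 and 0.0540. Npm1 has near-identical processed pseudogenes, so its counts are uncertain.

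Nop56 went the other way, at 608, 547 and 617 CPM in Lepr-Cre and 690, 841 and 787 CPM in FL/FL mice (-0.38, SE 0.11, adjusted p = 0.0414). KO/FL mice held 644, 580 and 705 CPM. Nop56 was the 1 member called lower in any genotype comparison, and its call was lost without 5 of the 6 libraries, FL/FL replicate A being the exception (adjusted p up to 0.170, without FL/FL replicate B). Its partners in the box C/D snoRNP, Nop58 (0.00) and Fbl (-0.02), were not called.

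The other roles gave values and no calls. Log2 fold changes were 0.11 to 0.38 for the 4 box H/ACA core proteins, 0.26 for Nolc1, 0.07 to 0.29 for the 4 genes of RNA polymerase I and nucleolar transcription and -0.08 to 0.25 for the PeBoW proteins. Srm was at 0.36 (adjusted p = 0.0590), with 216, 271 and 217 CPM in Lepr-Cre against 190, 188 and 172 CPM in FL/FL mice, which do not overlap. The count of 5 became 1 without Lepr-Cre replicate B, 3 without FL/FL replicate A, and 2 without FL/FL replicate B, FL/FL replicate C or Lepr-Cre replicate C. Over all genes the 632 calls became 371, 431, 416, 386 and 387 in the same order. When the letter entered the fit as a block, which also separates the female B mice, 15 members were higher and 1 lower, among 15.4% of all genes (8.3% higher). The 11 added were Srm, Ddx18, Nhp2, Nop16, Ncl, Ddx21, Nop2, Nolc1, Nip7, Noc2l and Heatr1.

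Markers of other stages moved with this comparison. The 8 erythroid markers summed to 4206 to 4504 CPM in PreCFU-E of Lepr-Cre mice and 3816 to 4099 in those of FL/FL mice, with none at 0. The 8 markers of stem and early progenitor cells summed to 81.4 to 130 CPM in Lepr-Cre and 259 to 321 CPM in FL/FL mice, and Cd34 was at 0 in the former. The summed level of the 6 stromal markers was 12.7 to 26.7 CPM in Lepr-Cre mice, with Col1a1 at 0, and 9.94 to 16.4 CPM in FL/FL mice. Their part in the result was not tested.

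**Figure D3:**
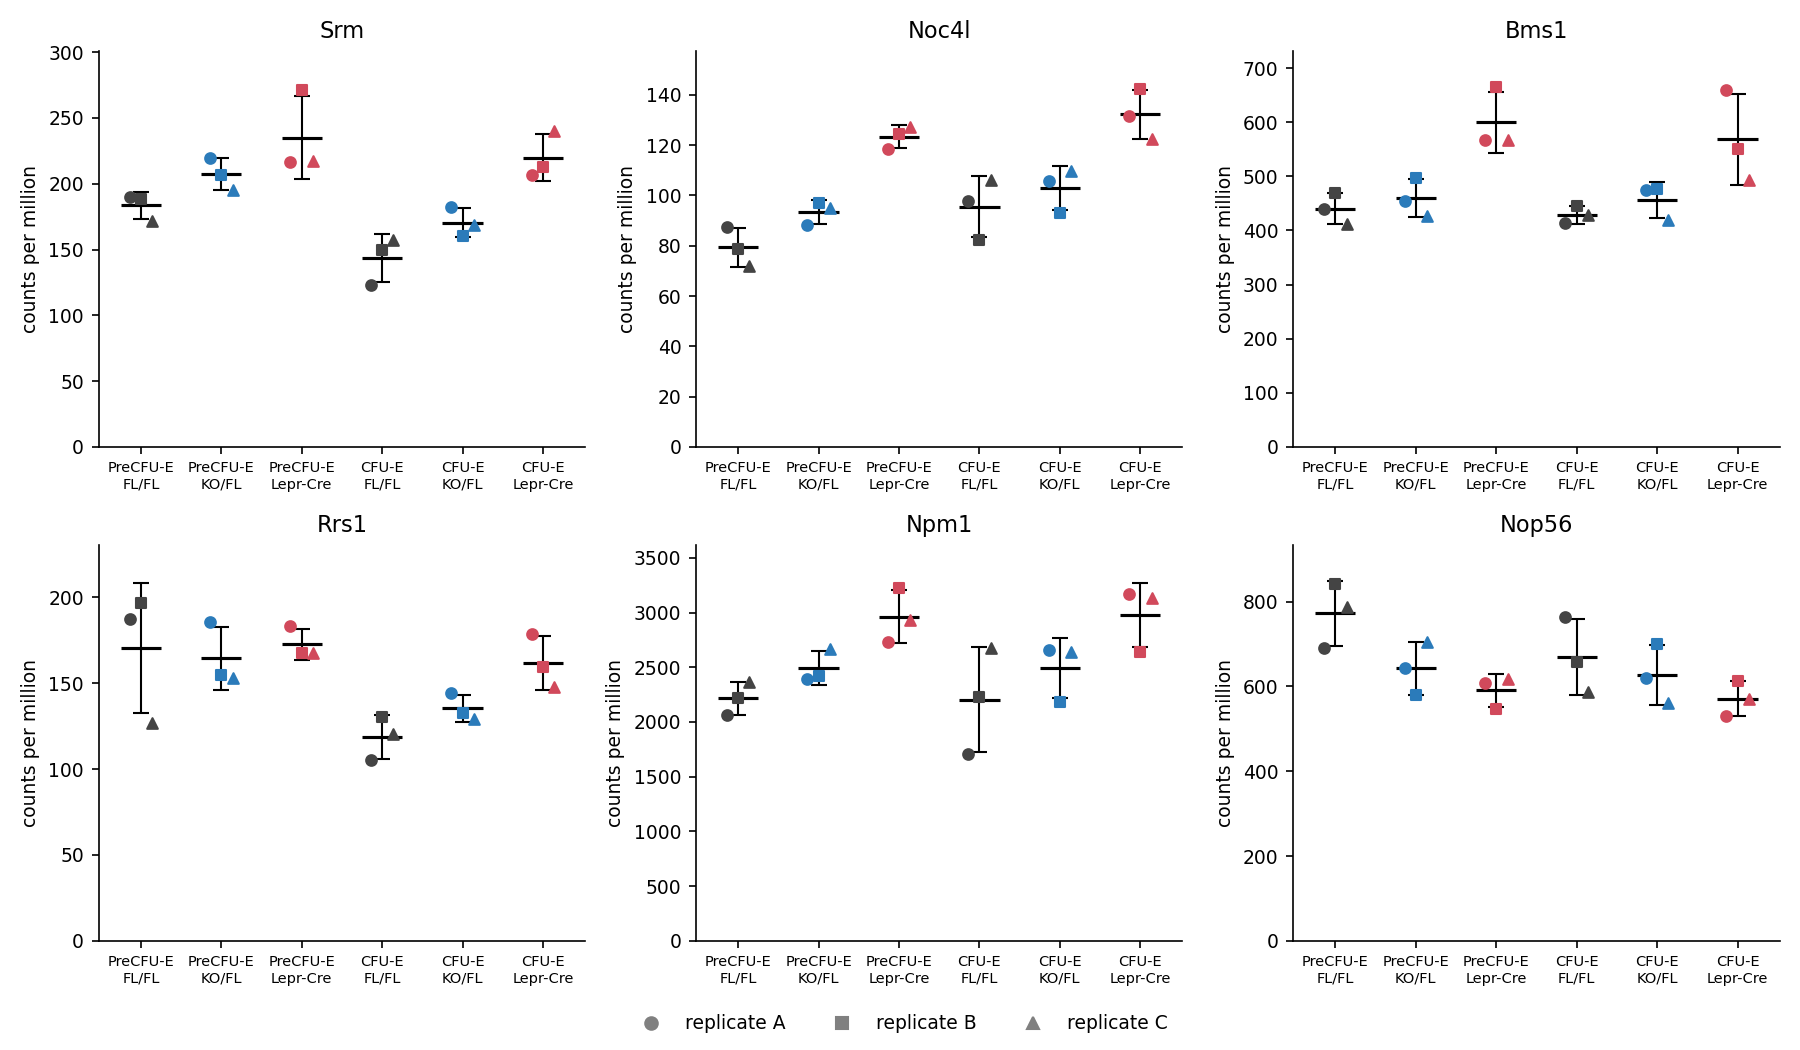
CPM (y axes) of Srm, Noc4l, Bms1, Rrs1, Npm1 and Nop56 in the 6 groups (x axes). Points are libraries, marked by replicate letter, and bars show mean ± SD over 3 libraries. Noc4l and Bms1 are above FL/FL in every Lepr-Cre library of both cell types, Srm is lower in CFU-E than in PreCFU-E of FL/FL mice, and Nop56 has its lowest mean in Lepr-Cre mice within each cell type.

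In CFU-E of Lepr-Cre against FL/FL mice 7 members rose and none fell, where 4.83% of 10192 genes were called and 2.08% were higher, against 16.3% of the members. They were Srm, Bop1, Nop2, Rrs1, Bms1, Noc4l and Noc2l, at 1.28-fold to 1.55-fold. For 21 members the Lepr-Cre libraries lay wholly above, against 10.3% of all genes, and for 0 wholly below, against 11.9%. Log2 fold changes were above 0 for 40 of 43 members and 50.4% of all genes, with medians of 0.21 and 0.00. Myc was at 0.14 (SE 0.12, adjusted p = 0.58).

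Srm stood at 206, 213 and 240 CPM in Lepr-Cre and 123, 150 and 158 CPM in FL/FL mice (0.63, SE 0.12, adjusted p = 0.00293 by edgeR, n = 3 per group). KO/FL mice lay between these, at 182, 160 and 169 CPM. Of the 7 calls that of Srm was the 1 that held under every alternative and with each library left out. Bop1, the PeBoW scaffold, was read at 186, 191 and 175 against 107, 134 and 139 CPM (0.55, SE 0.12, adjusted p = 0.00952), and its adjusted p was 0.0690 without FL/FL replicate A. Pes1 (0.20) and Wdr12 (-0.02) were not called.
Nop2, an rRNA methyltransferase of the large subunit, stood at 286, 324 and 310 against 219, 253 and 221 CPM (0.42, SE 0.10, adjusted p = 0.0162). Rrs1 was read at 179, 159 and 148 against 105, 131 and 120 CPM (0.46, SE 0.12, adjusted p = 0.0276). The Lepr-Cre libraries lay wholly above for both genes. Noc2l, of the same branch, averaged 669 ± 20.9 against 529 ± 17.8 CPM (0.35, SE 0.10, adjusted p = 0.0339). Exons of Noc2l and the antisense gene Samd11 share 598 bases and the counting is not stated to use strand, so its value is uncertain.

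The small subunit factors Bms1 (568 ± 84.6 against 429 ± 16.3 CPM, 0.42, SE 0.11, adjusted p = 0.0291) and Noc4l (132 ± 9.91 against 95.5 ± 12.1 CPM, 0.49, SE 0.13, adjusted p = 0.0335) were called in this cell type as in PreCFU-E. All 11 genes of that role had values above 0, against 50.4% of all genes. Npm1 (0.45, adjusted p = 0.0750) and Ncl (0.37, adjusted p = 0.0784) were not called. Nop56 was at -0.21 (adjusted p = 0.32), and its libraries overlapped. The count of 7 became 1 without FL/FL replicate A, 2 without Lepr-Cre replicate B, 3 without Lepr-Cre replicate A and 4 without FL/FL replicate B, and over all genes the 492 calls became 221, 347, 340 and 246. It was 9 without FL/FL replicate C (610 of all genes) and 8 without Lepr-Cre replicate C (445 of all genes). Without FL/FL replicate A the other 6 members had adjusted p-values of 0.0690 to 0.149 by edgeR. Noc2l also lost its call without Lepr-Cre replicate C (0.0574) or in a fit of all 18 libraries (0.0525), and Noc4l when scaled by library totals alone (0.0525). CFU-E of FL/FL replicate A had the lowest sum of the 43 other members, 18571 CPM, against 21533 and 22071 in B and C.
Erythroid markers overlapped between the groups here, at 4389 to 4532 CPM in Lepr-Cre and 4192 to 4855 CPM in FL/FL mice. Stem and early progenitor markers summed to 28.8 to 56.4 against 56.8 to 62.9 CPM, with Cd34 at 0 in the former and Cd34 and Flt3 in the latter, and stromal markers to 3.78 to 6.76 against 0.471 to 1.64 CPM, with Pdgfra at 0 in the former. Their part in the result was not tested.

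Lepr-Cre mice were next set against KO/FL mice, the comparison that isolates the Cre. It shares the Lepr-Cre libraries with the comparisons above. In PreCFU-E edgeR called 0 of 43 members, where 2.18% of all genes were called. At an unadjusted p under 0.05 there were 9, all higher, against 6.59% of all genes higher, and DESeq2 called 2, against 3.03%. The smallest p were those of Bms1 (0.39, SE 0.11, adjusted p = 0.0686), Noc4l (0.40, SE 0.13, adjusted p = 0.111) and Nolc1 (0.36, SE 0.11, adjusted p = 0.113). Nolc1 averaged 935 ± 94.6 against 728 ± 66.1 CPM. The Lepr-Cre libraries lay wholly above for 14 members and wholly below for 0, against 9.39% and 9.2% of all genes, and the medians were 0.12 and 0.00.
A block for the letter gave 10 of the 43, all higher, among 8.15% of all genes (4.41% higher). They were Bms1, Noc4l, Nolc1, Nhp2, Nop2, Ncl, Npm1, Noc2l, Ddx21 and Heatr1, at log2 fold changes of 0.21 to 0.40. Myc was at -0.06 (adjusted p = 0.898). Stem and early progenitor markers summed to 81.4 to 130 CPM in Lepr-Cre and 228 to 264 CPM in KO/FL mice, with Cd34 at 0 in the former. Erythroid markers summed to 4206 to 4504 and 3831 to 4176 CPM, and the part of either list in the result was not tested.

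In CFU-E of Lepr-Cre against KO/FL mice edgeR again called 0 of 43, where 1.01% of all genes were called. There were 10 at an unadjusted p under 0.05, all higher, against 5.41% of all genes higher, and DESeq2 called 2, against 2%. The smallest p were those of Nop2 (0.41, SE 0.10, adjusted p = 0.0530), Noc2l (0.35, SE 0.10, adjusted p = 0.0930) and Bop1 (0.43, SE 0.12, adjusted p = 0.0961), and these 3 were called once the letter was a block, among 2.75% of all genes. Nop2 was read at 286, 324 and 310 CPM in Lepr-Cre and 235, 228 and 234 CPM in KO/FL mice, with no overlap. For 18 members the Lepr-Cre libraries lay wholly above and for 0 wholly below, against 8.12% and 9.12% of all genes. The medians were 0.15 and 0.01, and Myc was at 0.07 (adjusted p = 0.868). Stromal markers summed to 3.78 to 6.76 CPM in Lepr-Cre and 1.43 to 2.15 CPM in KO/FL mice, with Pdgfra at 0 in both and Col1a1 in the latter, and their part in the result was not tested.

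The null copy without any Cre was compared last, as KO/FL against FL/FL mice, with libraries that the comparisons above also use. In PreCFU-E edgeR called 0 members and 0% of all genes, and DESeq2 called 0 members and 0.0259% of all genes. At an unadjusted p under 0.05 there was 1 member higher, Brix1 (0.33, SE 0.11, adjusted p = 1), and 1 lower, Nop56 (-0.26, SE 0.11, adjusted p = 1), against 1.84% and 1.55% of all genes. Noc4l followed (0.24, SE 0.13). The median of the members was 0.01, against 0.00 over all genes, and 23 of 43 were above 0, against 50.8% of all genes.
In CFU-E edgeR called 0 members and 0% of all genes, and DESeq2 called 0 members and 0.00639% of all genes. At an unadjusted p under 0.05 there was 1, Srm, higher (0.25, SE 0.12, adjusted p = 1), against 0.922% of all genes higher. Rrp1b (0.18) and Rrs1 (0.19) came next. Here 34 of 43 members were above 0, with a median of 0.07 against 0.00.

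**Figure D4:**
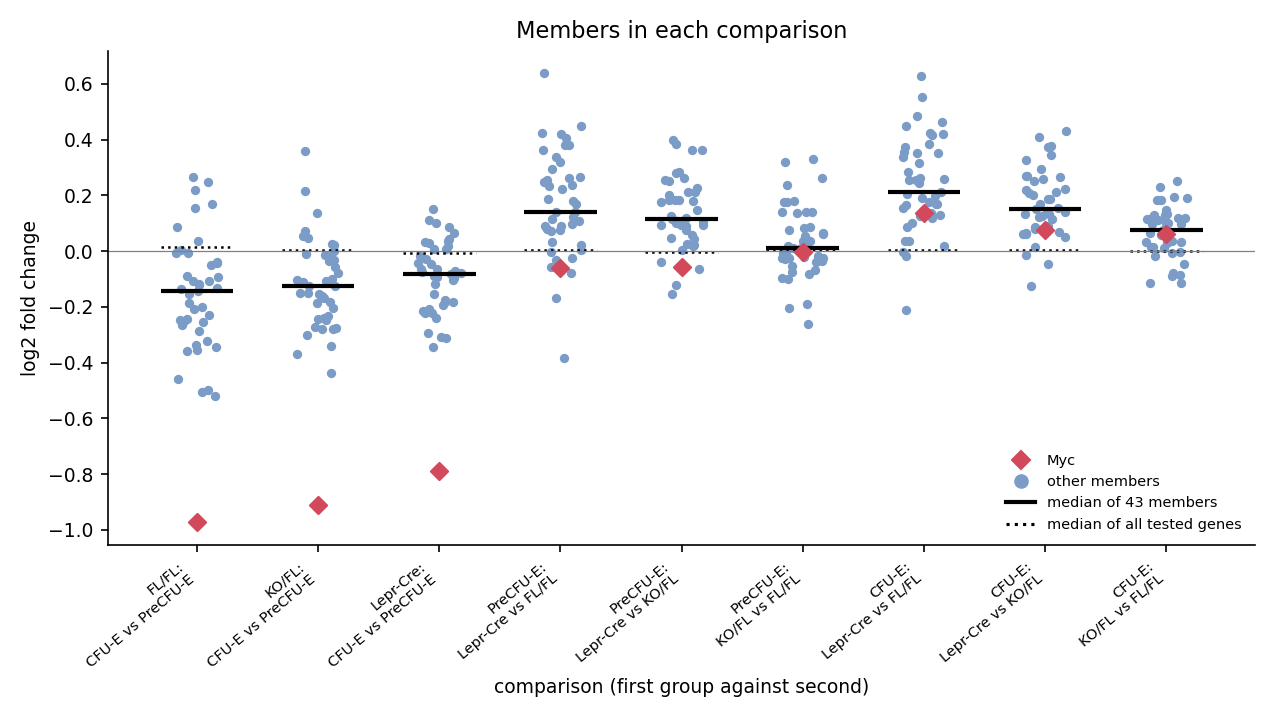
Log2 fold changes (y axis) of the 43 tested members in 9 comparisons (x axis). Points are members, the diamond is Myc, the solid line is the median of the members and the dotted line that of all tested genes. The member median is -0.14 in the step of FL/FL mice, 0.14 and 0.21 in Lepr-Cre against FL/FL mice, and 0.01 and 0.07 in KO/FL against FL/FL mice, while Myc leaves the cloud of the other members in the 3 steps alone.

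Interactions asked whether a genotype difference was larger in CFU-E than in PreCFU-E. For Lepr-Cre against FL/FL edgeR called 0 members, where 0.354% of all genes were called, and DESeq2 called 0, against 0.828%. At an unadjusted p under 0.05 there were 2, against 3.47% of all genes in that direction, both larger in CFU-E: Rrs1 (difference of log2 fold changes 0.43, SE 0.19, adjusted p = 0.515) and Rrp12 (0.40, SE 0.18, adjusted p = 0.537). The value for Myc was 0.19 (SE 0.17, adjusted p = 0.878). So the fall of Rrs1 or Myc at the step was not shown to differ between Lepr-Cre and FL/FL mice. For Lepr-Cre against KO/FL and for KO/FL against FL/FL edgeR and DESeq2 called 0 members, and 0 members had an unadjusted p under 0.05, against 5.3% and 2.32% of all genes. Of all genes edgeR called 0% in both and DESeq2 0.196% and 0%.

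Other genes of the pathway came from lists written with earlier results of these data known. The MYC network list holds the partners and antagonists of MYC. In FL/FL mice 3 of its 13 tested genes rose from PreCFU-E to CFU-E and 0 fell (23.1% higher, against 8.99% of all genes higher and 9.3% lower). They were Mxd1 (0.75, adjusted p = 0.0270) and Mxd3 (2.71, adjusted p = 0.0108), whose proteins compete with MYC for MAX, and Fbxw7 (0.45, adjusted p = 0.0171), whose protein marks MYC for degradation. Mxd1 averaged 37.1 ± 1.97 CPM in CFU-E and reached at most 26.8 CPM in a PreCFU-E library, with no overlap. Mxd3 was low, at 0.861 ± 0.769 and 5.48 ± 2.06 CPM, with PreCFU-E FL/FL replicate A at 0. Mxd1 also rose in Lepr-Cre mice (0.79, adjusted p = 0.0395), where 3% of all genes were called higher. Mxd4, of the same family, fell in CFU-E of Lepr-Cre against FL/FL mice, at 11.1, 14.6 and 8.62 against 28.2, 29.1 and 39.9 CPM (-1.49, SE 0.30, adjusted p = 0.00448). It was the 1 call of the list in a genotype comparison, 7.69% of the list against 4.83% of all genes called.

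Of the other growth targets of MYC, 23 were tested in the genotype comparisons, and 2 rose in PreCFU-E and 5 in CFU-E of Lepr-Cre against FL/FL mice, none falling. These are 8.70% and 21.7% of the list, against 2.89% and 2.08% of all genes called higher. Medians of the list were 0.19 and 0.26. Odc1, ornithine decarboxylase, which makes the putrescine that spermidine synthase uses, was called in all 4 comparisons of Lepr-Cre mice. In PreCFU-E it stood at 430, 510 and 511 CPM in Lepr-Cre, 328, 337 and 356 CPM in KO/FL and 327, 347 and 322 CPM in FL/FL mice. In CFU-E it stood at 567, 526 and 575 CPM, 423, 384 and 430 CPM and 358, 395 and 415 CPM in the same order. In both cell types the Lepr-Cre libraries lay above all others (log2 fold changes 0.55 and 0.51 in PreCFU-E and 0.53 and 0.44 in CFU-E, against FL/FL and KO/FL).
Hspd1, a mitochondrial chaperonin, rose against FL/FL in PreCFU-E (0.56, adjusted p = 0.00778) and CFU-E (0.59, adjusted p = 0.00627). Ccnd2, cyclin D2, was higher in CFU-E of Lepr-Cre mice, at 297, 241 and 237 CPM, than in those of FL/FL mice, at 123, 136 and 110 CPM (1.09, SE 0.17, adjusted p = 0.00103), or KO/FL mice (0.81, adjusted p = 0.0268). At the step Ccnd2 fell in FL/FL (-1.49, adjusted p = 0.000248) and KO/FL mice (-1.16, adjusted p = 0.00246). In FL/FL mice 2 targets of 24 rose and 3 fell at the step, Ifrd2 (0.46) among the former and Tfap4 (-0.49) among the latter; the 20.8% called is near the 18.3% of all genes.

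Assembly factors outside the module were described the same way. In PreCFU-E of Lepr-Cre against FL/FL mice 2 of 38 small subunit factors rose, Pno1 (0.58, adjusted p = 0.00716) and Nol11 (0.45, adjusted p = 0.0236), which is 5.26% against 2.89% of all genes, and 0 of 37 large subunit factors were called by edgeR, 7 of them being higher at an unadjusted p under 0.05 against 9.88% of all genes. Medians were 0.18 and 0.17. In CFU-E 4 and 2 rose (10.5% and 5.41%, against 2.08% of all genes). They were led by Utp18 (0.55, adjusted p = 0.0115), Nop9 (0.46, adjusted p = 0.0335), Mphosph10 (0.40, adjusted p = 0.0341), Gtpbp4 (0.48, adjusted p = 0.0133) and Ftsj3 (0.41, adjusted p = 0.0358). The median was 0.23 for both lists, and all 38 small subunit factors were above 0, against 50.4% of all genes. Genes of a list were read in the same libraries, so their signs are not independent. At the step in FL/FL mice 4 small subunit and 3 large subunit factors fell and 0 rose, shares of 10.5% and 8.11% that lie near the 9.3% of all genes called lower, among them Pwp2 (-0.36), Utp15 (-0.45), Nol6 (-0.36), Gtpbp4 (-0.47), Sdad1 (-0.43) and Nol9 (-0.34).
Of 19 other RNA polymerase I factors, Taf1d, a subunit of the promoter selectivity factor, fell in PreCFU-E of Lepr-Cre against FL/FL mice, at 271, 214 and 209 against 340, 338 and 355 CPM (-0.57, SE 0.13, adjusted p = 0.00739). This was 5.26% of the list, against 3.24% of all genes called lower. At the step in FL/FL mice Polr1d, a subunit shared with RNA polymerase III, rose (0.77, adjusted p = 0.000549), while Tcof1 (-0.40, adjusted p = 0.0142) and Polr1e (-0.58, adjusted p = 0.0410) fell, 15.8% of the list against 18.3% of all genes. Polr2h, a subunit common to the RNA polymerases, rose at the step in Lepr-Cre mice (0.71, adjusted p = 0.0352), 5.26% of the list against 3% of all genes called higher.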

How the data were processed

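RNA was measured in sorted cells of 18 libraries; the labels also head their protocol as nuclear extraction, and whole cells were assumed. Reads were aligned with STAR 2.5.2b to mm10, and HTSeq made the counts, as the submitters' processing notes name them. Strand setting and annotation: not given in the sources used here. Deposited tables hold raw read counts per gene and RPKM values made by the authors. The divisor behind the RPKM matched the exon length or span within 10% for 0 of 44 members, so RPKM was not used; levels per length are counts per kilobase of exon (GENCODE M21), also in the rule for the highest and lowest genes. Libraries of 1 group had a chi-square of 7.93 to 19.8 per degree of freedom, more than sampling noise.

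Counts were tested with edgeR 4.0.16 (R 4.3.3; TMM, filterByExpr with minimum count 10 and total 15, robust quasi-likelihood, two-sided, Benjamini-Hochberg over all tested genes): genotypes on the 9 libraries of a cell type, steps and interactions on all 18. Scripts were tested on simulated data. SE is the log2 fold change over the square root of F. DESeq2 1.42.0, other scalings, no filter, a block and each library left out were alternatives.

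The members and lists were chosen with earlier results of these data known. Named are Myc, members called (up to 8 per direction, else the 3 smallest p), the 3 highest and 3 lowest by level, and up to 3 called genes per list; single members outside this rule were named after their values were seen.

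PreCFU-E and CFU-E of 1 mouse were treated as pairs only in the alternative with the mouse as a block (r of deviations from group means 0.111 to 0.197). Across genotypes, letters counted as pairs where each of the 3 r exceeded 0.1: all PreCFU-E groups (0.109 to 0.178) and CFU-E of KO/FL with FL/FL (0.107 to 0.189) and with Lepr-Cre mice (0.115 to 0.168). Some groups of other mice and the other cell type also passed. PreCFU-E of Lepr-Cre with CFU-E of FL/FL mice had 0.141 to 0.238, PreCFU-E of KO/FL with CFU-E of FL/FL mice 0.101 to 0.120, and PreCFU-E of Lepr-Cre with CFU-E of KO/FL mice 0.106 to 0.159. These r therefore do not single out libraries of the same mouse. The main fits had no block, so those of the steps and interactions treated both libraries of a mouse as independent. The p-values of the genotype comparisons measure the spread between these mice, and those of the steps and interactions the spread between libraries.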

Additional observations from a re-analysis of the deposited data

How the results depend on the processing

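No call of a named member reversed under an alternative. Over the named members and all settings, 223 calls were kept and 64 lost, and of the values not called 429 stayed so and 24 passed the threshold. The replicate block moved the counts of called members from 5 to 16 (PreCFU-E, Lepr-Cre against FL/FL), 0 to 10 (PreCFU-E, Lepr-Cre against KO/FL), 0 to 3 (CFU-E, Lepr-Cre against KO/FL) and, at the steps, 10 to 16 for FL/FL, 2 to 8 for KO/FL and 1 to 5 for Lepr-Cre, and it changed no other count except in CFU-E of Lepr-Cre against FL/FL mice. There the letters were not shown to pair the libraries (lowest r 0.0877), although all 3 libraries of each group correlated best with their own letter. The block gave 13 in place of 7, while over all genes the calls went from 492 to 933.

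DESeq2 gave 2 for PreCFU-E and 2 for CFU-E of Lepr-Cre against KO/FL, among 3.03% and 2% of all genes. It gave 12 for CFU-E of Lepr-Cre against FL/FL and 3 at the step in Lepr-Cre mice. Without the filter on low counts the counts against KO/FL were 2 in PreCFU-E and 1 in CFU-E, and with all 18 libraries in 1 fit the latter was 1. Scaling by library totals alone gave 5 at the KO/FL step and 3 at the Lepr-Cre step; it moved the median of all genes by at most 0.05 and left member medians of 0.08 (PreCFU-E) and 0.17 (CFU-E) for Lepr-Cre against FL/FL. Apart from DESeq2 against KO/FL, the share of all genes called under these settings is not given here. Those counts therefore cannot be read as particular to the members. The cause of these moves was not tested.

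Leaving out 1 library at a time gave 1 to 4 called members in PreCFU-E and 1 to 9 in CFU-E of Lepr-Cre against FL/FL, 3 to 9 at the FL/FL step, 2 to 4 at the KO/FL step, 1 to 1 at the Lepr-Cre step, and 0 in the other comparisons. Calls over all genes were 371 to 471, 221 to 610, 1342 to 1684, 1047 to 1364 and 473 to 789, in that order. In the other comparisons they were at most 218. Wdr74, with 0 to 15 counts per library, was not detectable as changed or unchanged at this depth.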

Other observations

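Some members carry other RNAs inside them. In GENCODE M21, 8 of the 44 host annotated snoRNAs: Nop56 with 5, Nop58 with 4, Ncl, Gnl3 and Wdr43 with 3 each, Ppan and Tsr1 with 2 each and Dkc1 with 1. Their log2 fold changes in PreCFU-E of Lepr-Cre against FL/FL mice were -0.38 for Nop56, 0.00 for Nop58, 0.32 for Ncl, 0.08 for Gnl3, 0.09 for Wdr43, -0.17 for Ppan, 0.09 for Tsr1 and 0.18 for Dkc1. Nop56 was the 1 host of the 8 called, where 6.13% of all genes were called and 3.24% were called lower. Its call was lost in 5 of 12 alternative settings, and a link to hosting was not tested.

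Exons of 16 members overlap those of a gene on the other strand, by 5 bases for Nop56 with Idh3b up to 1240 bases for Tsr1 with Srr, and reads in such stretches cannot be assigned without the strand setting.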
